A study of Neurospora discreta with 48 samples.

Results

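Of the 9280 gene models compared between the parent strains of Neurospora discreta, 267 spanned 5000 bp or more from start to end, and these long models are described here. They were chosen by span alone, as end minus start plus 1 in the authors' deposited table, so the rule itself used no expression value. The choice was made with earlier results of these data known, and the filter behind the 9280 models is not stated. Their spans had a median of 6123 bp and reached 17659 bp. They made up 2.88% of all models and 9.87% of the summed span, and they lay on 27 of the 64 scaffolds. The shortest of them spanned 5005 and 5010 bp, with a log2 of arm B over arm A of -0.77 and 0.99. The models just below the limit, at 4995 and 4989 bp, stood at -1.03 and 0.29.

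Neurospora discreta is a filamentous ascomycete related to the laboratory species Neurospora crassa, in which light acts through the White Collar proteins to reset the circadian clock and to switch on light-responsive genes. Fungal genes are compact with few and short introns, so a long gene model usually stands for a large protein. In filamentous fungi such proteins include dynein heavy chain (a motor that moves cargo along microtubules), fatty acid synthases, polyketide synthases, non-ribosomal peptide synthetases and kinases of the TOR family. Genes of a secondary metabolite pathway often lie side by side, with a long synthase gene among shorter genes for transporters and modifying enzymes. The authors' deposited table pairs its IDs with no gene name or function, so none of these classes could be assigned to a model, and models are given by scaffold, start and end.

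The study grew mycelial pads, labelled as mycelia and conidia, in low glucose medium at a constant 25 °C, with 12 h light periods alternating with 12 h dark periods, and sequenced 48 RNA libraries of 4 strains at 4 times, with 3 libraries each. The groups used here are FGSC8831, the African parent with the label high RI, and FGSC8578, the North American parent with the label low RI, both after 15 min of light. The labels do not spell out RI and name no introduced allele. The progeny N309-89 and N309-50 and the other times, 42 libraries in all, were not analysed here. Each parent is a single natural isolate, and the labels do not say whether the 3 libraries of a group came from separate cultures. The p-values may therefore measure technical spread only. Whether the pads held mycelium and conidia as labelled was not checked, since no marker gene could be matched.

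Values come from 1 comparison of the authors with the arms A and B, each given as 1 mean of normalized counts, which are counts divided by a size factor per library. The columns do not name the strains. The table's title puts FGSC8578 first, in which case B would be FGSC8831 and A would be FGSC8578. Directions are therefore stated as B relative to A. Arm totals were 10507386 normalized counts in B and 9331506 in A, the depth of single libraries is unknown, and no value per library is given, so arm means carry no SD. Where an error is printed with a log2 value, it is an approximate standard error implied by the edgeR log2 fold change and likelihood ratio in the authors' deposited table. The comparison has 3 libraries per arm. Whether the edgeR fit behind these errors also drew on other libraries is not stated.

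The long models had a higher median level per model than models of 1000 to 3000 bp but a lower one per kb. Few had a mean under 50 normalized counts. Their mean over both arms had a median of 419 normalized counts with quartiles of 205 and 836, against a median of 291 in models of 1000 to 3000 bp. Of the 267, 255 had a mean of at least 50. Counts grow with transcript length, so levels between models are compared per kb of span. On that scale the long models had a median of 62.6 normalized counts per kb (quartiles 31.3 and 135), against 159 (53.7 and 438) in models of 1000 to 3000 bp and 122 in all models. The span holds introns, so the level per kb of mature transcript would be higher than this for models rich in introns. The long models held 2.28% of the summed means of all models.

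Level per kb was lower in each longer class. The median was 85.2 normalized counts per kb in the 125 models of 5000 to under 6000 bp and 57.0 in the 107 models of 6000 to under 8000 bp. It was 41.5 in the 20 models of 8000 to under 10000 bp and 37.3 in the 15 models of 10000 bp or more. The level per model, in contrast, showed no such order, with medians of 443, 380, 348 and 433 normalized counts in the 4 classes. Quartiles of neighbouring classes overlapped throughout.

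**Figure D1:**
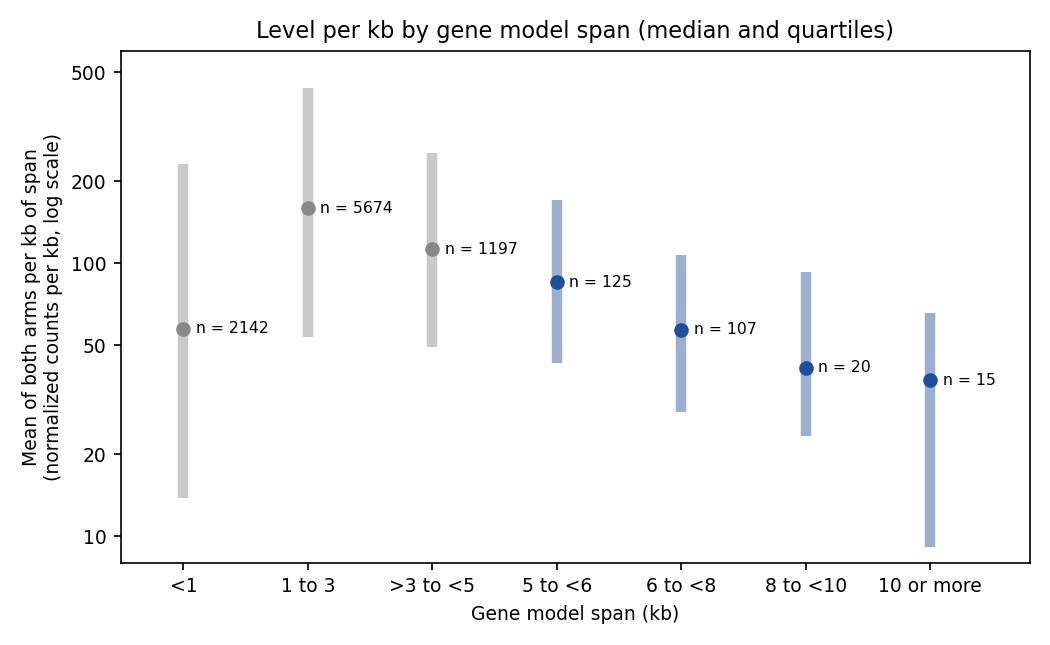
Level per kb by gene model span in kb, with the mean of both arms per kb of span on a log axis. Points are medians and bars run from the lower to the upper quartile, blue for spans of 5000 bp or more. Medians step down from 159 normalized counts per kb at 1000 to 3000 bp to 37.3 at 10000 bp or more, while models under 1000 bp have a median of 57.5.

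One long model stood far above the rest in level. It lay on scaffold 23 (66036 to 71740, 5705 bp) with 51105 normalized counts in B and 47184 in A in the authors' deposited table, and it alone held 21.8% of the summed level of the long models. Its edgeR log2 of B over A was 0.10 ± 0.47 (approximate SE), with an approximate 95% interval from -0.82 to 1.03, which still holds a 2-fold rise in B. The next model by level was on scaffold 8 (943062 to 949743), with 9419 in B and 5135 in A in the authors' deposited table. Next came scaffold 5 (1899589 to 1904651) with 4509 in B and 5718 in A, and scaffold 1 (3623571 to 3628701) with 5254 in B and 3721 in A, also from the authors' deposited table. None of these 4 was called different by either tool. The fifth most abundant, on scaffold 3 (1452845 to 1463121), was called and is described among the strongly different models.

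None of the 5 longest models was called different by either tool. A model of 17659 bp on scaffold 4 (470347 to 488005) had, by the authors' deposited table, 140 normalized counts in B and 160 in A. The model next to it on the same strand, 13599 bp long (456353 to 469951), had 1187 in B and 618 in A in the authors' deposited table, with an edgeR log2 of 0.93 ± 0.50 (approximate SE) and a DESeq adjusted p of 0.0786. The models of 16860 bp on scaffold 26 (70320 to 87179) and 15603 bp on scaffold 6 (21887 to 37489) had log2 values of 0.57 and 0.55. That of 15046 bp on scaffold 19 (245319 to 260364) stood at -0.57. In the class of 10000 bp or more as a whole, the median absolute log2 was 0.57 and 3 of the 15 models were 4-fold or more apart.

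Across the long models, the arms differed by a modest amount and slightly more models were higher in B. In 266 models with counts in both arms, the median log2 of B over A was 0.11 (quartiles -0.34 and 0.53), against 0.04 in models of 1000 to 3000 bp and 0.03 in all models. Of the 267, 58.4% had a higher mean in B. In models of over 3000 to under 5000 bp the median was 0.13 and 57.4% were higher in B. The lean was thus not particular to models of 5000 bp or more. Level has to be held fixed when sets of unlike span are compared, because more abundant models lean towards B in this table. Models of 1000 to 3000 bp were therefore averaged over 6 tiers of level, with limits at 50, 200, 700, 2000 and 5000 normalized counts, in the proportions of the long models. These tiers match counts per model, not level per kb. At the tiers, medians of level per kb averaged 379 normalized counts in models of 1000 to 3000 bp, against a median of 62.6 in long models. The tier average had a median log2 of 0.04, and 53.8% of models higher in B. With both arms scaled to equal totals, a shift of 0.17 in log2, both medians turned negative, at -0.060 for long models and -0.13 for the others, and 45.7% and 42.6% were higher in B. The sign of the median is thus set by the scaling.

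Within the tiers from 50 to under 5000 normalized counts, the median log2 of the long models was higher in each higher tier. It was -0.16 for the 55 long models from 50 to under 200 normalized counts, against -0.13 for models of 1000 to 3000 bp. From 200 to under 700 it was 0.08 for 116 long models, against 0.01. From 700 to under 2000 it was 0.35 for 69 long models, against 0.23. From 2000 to under 5000 it was 0.38 for 12 long models, against 0.35. The outer tiers broke this order. Under 50 the median was 0.18 for 12 long models, against -0.37, and at 5000 or more it was 0.12 for 3 long models, against 0.26. No test was made of these differences.

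Taken as 1 set, long models had a somewhat narrower middle of the distribution than models of 1000 to 3000 bp. Their interquartile range of log2 was 0.87, against 0.98. It was narrower in each of the 6 tiers. Examples are 0.82 against 0.99 from 50 to under 200 and 0.77 against 0.80 from 200 to under 700. By length class, the range was narrowest, at 0.72, from 5000 to under 6000 bp. It was 0.93 from 6000 to under 8000 bp, 0.97 from 8000 to under 10000 bp and 1.00 at 10000 bp or more. Models of over 3000 to under 5000 bp had 0.83, so a narrower range was not particular to long models. The median absolute log2 was 0.45 in long models and 0.47 in the others averaged over the tiers. This gap turned round in 3 of the 9 alternatives. Against comparison models of 2000 to 3000 bp the median was 0.4471 in long models and 0.4403 in the others. Among models with a mean of at least 50 it was 0.4478 in long models and 0.4445 in the others, and with a length limit of 6000 bp it was 0.4965 and 0.4689. Within 0.5 log2 units of equality lay 55.8% of long models, against 53.9% of the others over the tiers. The precision behind the values was close in both sets: the median approximate SE of the edgeR log2 was 0.45 in long models and 0.40 in the others from 50 to under 200 normalized counts, and 0.33 in both from 700 to under 2000.

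**Figure D2:**
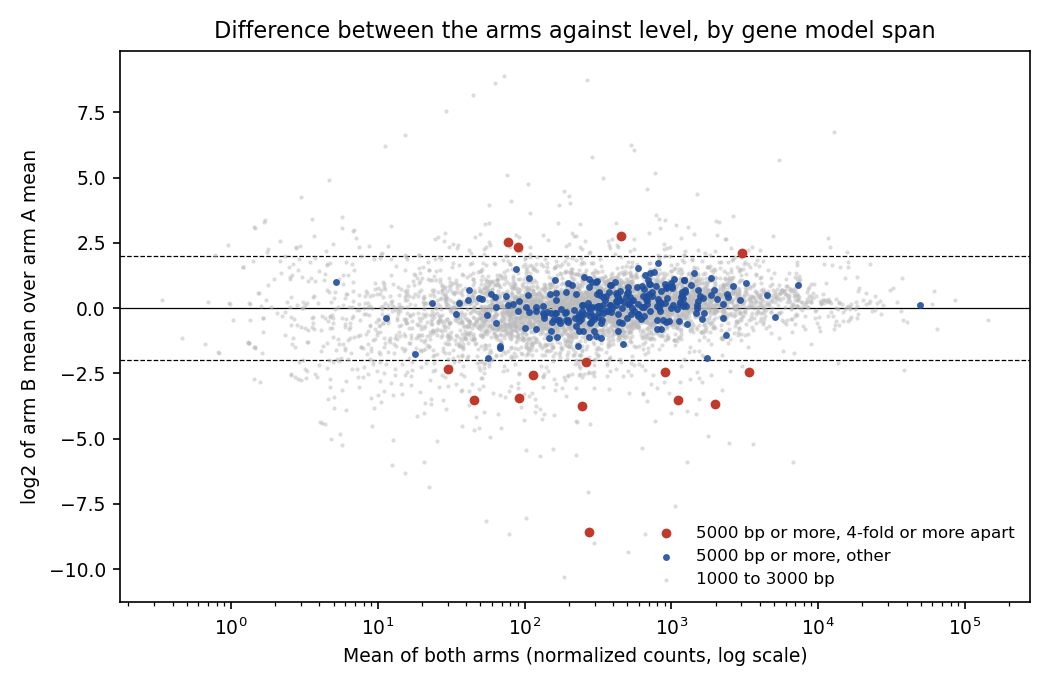
Difference between the arms against level, with the log2 of the arm B mean over the arm A mean plotted over the mean of both arms on a log axis. Red points are long models 4-fold or more apart, blue points the other long models, grey points models of 1000 to 3000 bp, and dashed lines mark 4-fold. Of the red points, 4 lie above the upper line and 11 below the lower one.

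Of the 267 long models, 35 (13.1%, exact binomial 95% interval 9.30 to 17.8) were called different in the authors' deposited table, with a DESeq adjusted p below 0.05. Of all models 15.0% were called, and the tier average of models of 1000 to 3000 bp was 15.1%, so the long models lay near the background. The calls divided evenly, with 18 higher in B and 17 lower in B, against backgrounds of 6.93% and 8.03% of all models. Calls were fewest from 5000 to under 6000 bp, with 11 of 125 (8.80%, interval 4.48 to 15.2), and 18 of 107 were made from 6000 to under 8000 bp (16.8%, interval 10.3 to 25.3). These intervals overlap. The longer classes, with 3 calls of 20 and 3 of 15, were too small to place. With the limit at 0.01 for the adjusted p, the authors' deposited table left 22 calls, 9 of them higher in B.

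The edgeR columns called 46 long models (17.2%), 23 in each direction, against 21.4% of all models. Both tools called 29, all with the same sign. DESeq alone called 6 long models and edgeR alone 17, for which the authors' deposited table gave DESeq adjusted p from 0.0525 to 0.208. In the whole table DESeq alone called 39 models.

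In long models, as in all models, calls under 4-fold were more often higher in B and differences of 4-fold or more were more often lower in B. The 20 called models that were less than 4-fold apart comprised 14 higher in B, with log2 values from 1.07 to 1.73, and 6 lower in B, from -1.93 to -1.36. At 4-fold or more, 4 were higher in B and 11 lower in B. Over all models, 409 called models less than 4-fold apart were higher in B and 320 lower. At 4-fold or more, called or not, 304 were higher and 550 lower, and 659 of these 854 were called. The long models' split was not tested against these counts. The largest difference under 4-fold upwards was on scaffold 4 (1994846 to 1999917), for which the authors' deposited table gave 1247 normalized counts in B and 377 in A. By the authors' deposited table, a model on scaffold 8 (982455 to 989642) had 891 in B and 303 in A. The largest downwards was on scaffold 32 (60609 to 66183), with 728 in B and 2772 in A in the authors' deposited table.

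In all, 15 long models (5.62%, exact binomial 95% interval 3.18 to 9.10) had arm means 4-fold or more apart. The background was 9.20% of all models, and the tier average of models of 1000 to 3000 bp was 5.46%. At like counts per model, the share was thus close to that of the others for the limit of 5000 bp. By length class, 4-fold differences were found in 3 of 125 models from 5000 to under 6000 bp (2.40%, interval 0.498 to 6.85) and 9 of 107 from 6000 to under 8000 bp (8.41%, interval 3.92 to 15.4). These intervals overlap, and the longer classes had 0 of 20 and 3 of 15. With a limit of 6000 bp it was 8.45%, against a tier average of 5.60%. By direction, 4.12% of long models were 4-fold or more lower in B and 1.50% higher in B, against 3.25% and 2.21% over the tiers and backgrounds of 5.93% and 3.28%. The difference in direction was not tested and rests on 11 and 4 models. All 15 were called by both tools, and none of them overlapped another gene model. A further long model on scaffold 4 (702350 to 709715) was listed at 2.30 normalized counts in B, worth 7 counts, and at 0 in A in the authors' deposited table. With A set at 3 counts over its libraries and B taken as listed, it was 2.39-fold higher in B, which leaves out the counting error of B. It was called by edgeR (adjusted p 0.0233) and not by DESeq (adjusted p 0.183) in the authors' deposited table.

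**Figure D3:**
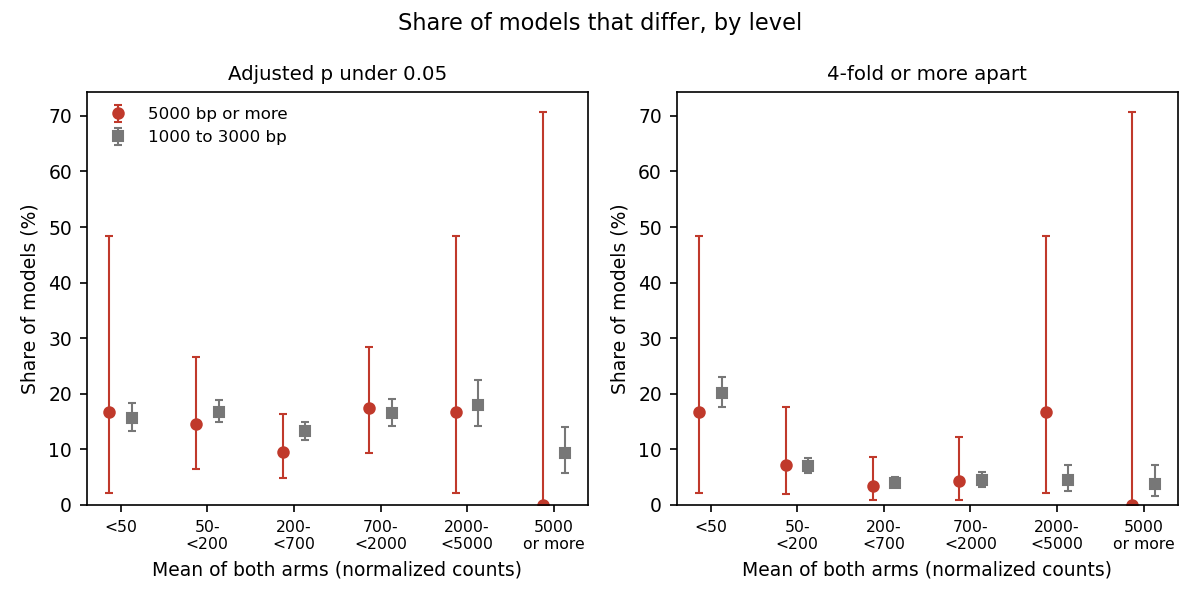
Share of models called by DESeq (left) and 4-fold or more apart (right), in percent, by the mean of both arms in normalized counts. Red circles are models of 5000 bp or more, grey squares models of 1000 to 3000 bp, and bars are exact binomial 95% intervals that cover counting only. The intervals of long and shorter models overlap in every tier, and the 116 long models from 200 to under 700 have 9.48% called against 13.3%.

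The steepest difference among long models was almost a loss of the transcript in B. The model estExt_fgenesh3_pm.C_60067 on scaffold 6 (301375 to 308066, 6692 bp) stood in the authors' deposited table at 1.43 normalized counts in B and 549 in A. The low mean in B was worth 4 counts over its libraries, so the 385-fold lower level in B has a 95% counting interval from 150 to 1413, which takes the low arm alone. Whether the gene is silent, absent or diverged in the strain of arm B was not tested. The second was estExt_fgenesh2_pg.C_80305 on scaffold 8 (1116534 to 1123469, 6936 bp), for which the authors' deposited table gave 34.7 in B and 461 in A, 13.3-fold lower in B. Its edgeR log2 was -3.73 ± 0.74 (approximate SE). All 11 models of this direction had an adjusted p of at most 0.0031 for DESeq and 0.0018 for edgeR in the authors' deposited table.

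Among the more abundant long models, 4 fell by more than 5-fold in B. On scaffold 9 (125172 to 130423, 5252 bp) the authors' deposited table gave 292 normalized counts in B and 3692 in A, 12.7-fold lower. A model of 7877 bp on scaffold 15 (456340 to 464216) was 11.6-fold lower, for which the authors' deposited table gave 178 in B and 2054 in A. The model of 10277 bp on scaffold 3 (1452845 to 1463121), the fifth in level of all long models, was listed by the authors' deposited table at 1046 in B and 5762 in A. It was 5.51-fold lower in B, with an edgeR log2 of -2.48 ± 0.42 (approximate SE). A second model on scaffold 3 (1230878 to 1237140, 6263 bp) was also 5.51-fold lower, and the authors' deposited table gave it 277 in B and 1528 in A.

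The other 5 models lower in B were less abundant than these 4. A model of 7110 bp on scaffold 4 (2332963 to 2340072) had 15.3 in B and 167 in A in the authors' deposited table. On scaffold 2 (1019720 to 1025475, 5756 bp) the authors' deposited table gave 33.0 in B and 195 in A. A model of 7202 bp on scaffold 1 (3987271 to 3994472) was 4.20-fold lower, at 101 in B and 425 in A by the authors' deposited table. The remaining pair lay on scaffold 13. The longer, of 10581 bp (220902 to 231482), stood in the authors' deposited table at 7.19 in B and 83.2 in A. The shorter, of 6084 bp (250942 to 257025), had 10.1 in B and 50.3 in A in the authors' deposited table.

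In the other direction, 4 long models rose 4-fold or more in B. The largest rise was that of estExt_Genewise1Plus.C_10922 on scaffold 1 (1578350 to 1585433, 7084 bp), with 785 normalized counts in B and 117 in A in the authors' deposited table, 6.72-fold higher in B. Its edgeR log2 was 2.74 ± 0.58 (approximate SE). The model estExt_Genewise1Plus.C_80269 on scaffold 8 (463321 to 471199, 7879 bp) had 133 in B and 22.9 in A in the authors' deposited table, 5.78-fold higher. A model of 12093 bp on scaffold 1 (4525312 to 4537404) was listed in the authors' deposited table at 150 in B and 29.5 in A. The most abundant of the 4, on scaffold 15 (183049 to 188574, 5526 bp), had 4907 in B and 1146 in A in the authors' deposited table, 4.28-fold higher with a log2 of 2.09 ± 0.50 by edgeR (approximate SE). Their highest adjusted p was 0.0004 for DESeq and 0.0004 for edgeR in the authors' deposited table. With equal arm totals 16 models were 4-fold or more apart, 14 of them among these 15, and 3 were higher in B.

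**Figure D4:**
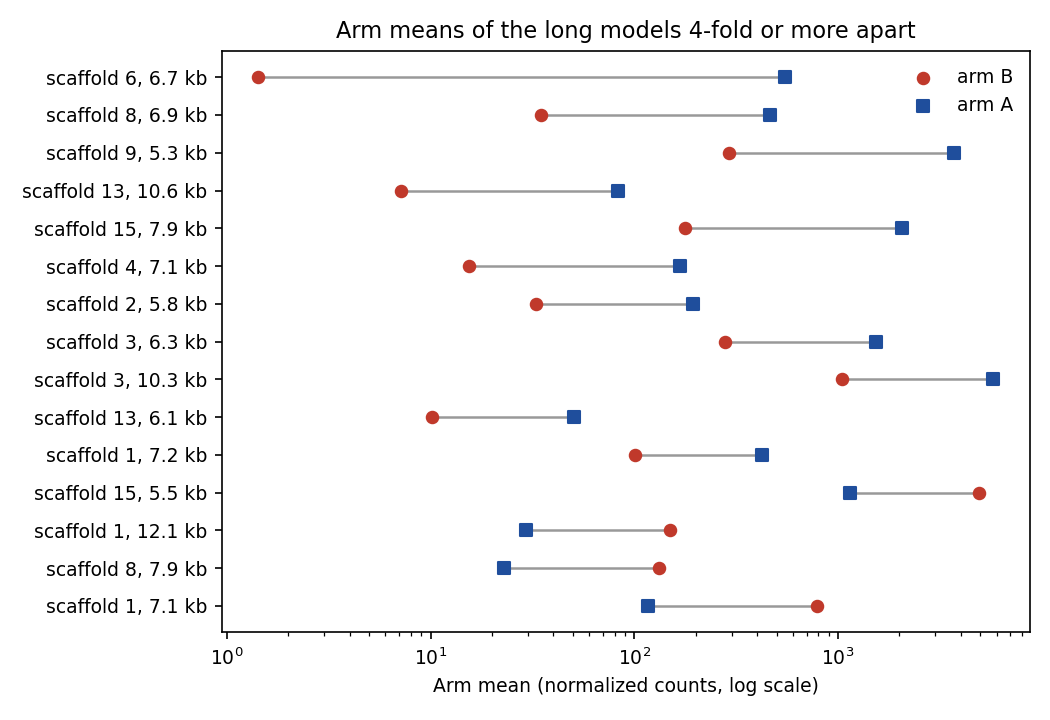
Arm means of the 15 long models 4-fold or more apart, in normalized counts on a log axis, with red circles for arm B and blue squares for arm A. Models are labelled by scaffold and span and ordered from the largest fall to the largest rise in B. The pair on scaffold 6 is the widest, at 1.43 in B and 549 in A.

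The strongly different long models were then examined for neighbours that differed the same way. Each of the 15 had a gene model on either side on its scaffold, 30 neighbours in all. Of these, 18 had the same sign as the long model (60.0%, exact binomial 95% interval 40.6 to 77.3), 11 were 2-fold or more apart the same way (36.7%, 19.9 to 56.1) and 7 were called the same way (23.3%, 9.93 to 42.3). In the opposite direction, 4 were 2-fold or more apart (13.3%). The 18 of the same sign include 2 models of scaffold 13 (232804 to 235185 and 257749 to 258807). These were listed at 0 in B, with 0.641 and 0.941 normalized counts in A, which gives no fold. Around models of 1000 to 3000 bp that were 4-fold or more apart, averaged over the tiers, 67.8% of neighbours had the same sign, 31.1% were 2-fold the same way, 21.1% were called the same way and 10.03% were 2-fold the opposite way. Each of these values lay within the interval of the long models. The 30 neighbours belong to 15 models and are not independent, so the intervals describe counting only. Of all models, 11.4% were 2-fold or more higher in B and 15.0% lower in B, and next to the other 252 long models the shares were 10.9% and 12.9%.

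Long models that fell and those that rose had close shares of such neighbours. Next to the 11 models lower in B, 8 of 22 neighbours (36.4%, interval 17.2 to 59.3) were 2-fold or more lower, against 35.1% around models of 1000 to 3000 bp. Next to the 4 models higher in B, 3 of 8 were 2-fold or more higher (37.5%, interval 8.52 to 75.5), against 27.0%. By model, 2 of the 15 had such a neighbour on both sides, 7 on 1 side and 6 on neither. Many neighbours were little expressed: 7 of the 12 with a mean under 50 normalized counts were 2-fold the same way, and 4 of the 18 with a mean of 50 or more. Around the 4-fold models of 1000 to 3000 bp the split ran the same way, with 141 of 310 (45.5%) and 139 of 512 (27.1%). Among models with a mean of at least 50 only, 3 of 16 neighbours were 2-fold the same way (18.8%), against 25.6% around the shorter models, so the order of the shares turned round. It also turned round with a length limit of 4000 bp, at 27.4% against 32.8%.

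**Figure D5:**
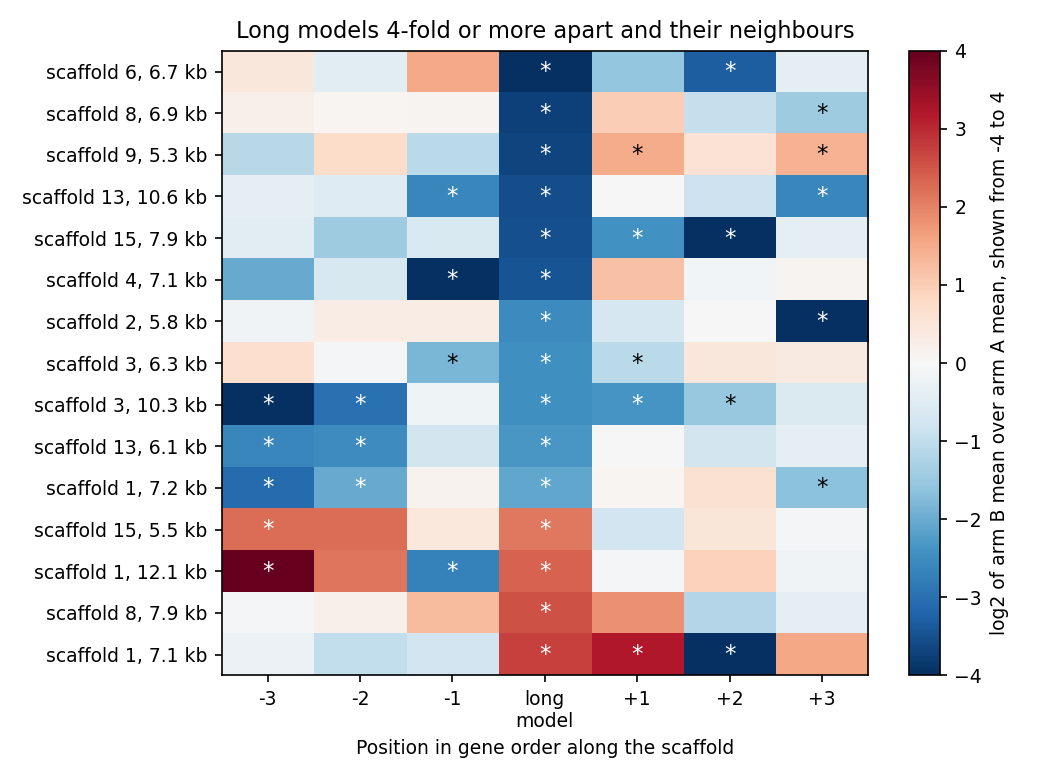
The 15 long models 4-fold or more apart and up to 3 gene models on each side in gene order, coloured by the log2 of the arm B mean over the arm A mean and shown from -4 to 4. A mean of 0 in an arm was set at 3 counts, models with too few counts for a fold are shown as 0, and asterisks mark models called by DESeq. Of the directly adjacent models, 7 of 30 carry a call in the direction of the long model.

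The model of 6263 bp on scaffold 3 was the only member with a neighbour called the same way on both sides. The model before it (1229288 to 1230065) had 14.7 normalized counts in B and 52.4 in A in the authors' deposited table, and the one after it (1238539 to 1240075) had 428 in B and 901 in A. On the same scaffold, the 10277 bp model was followed by a called model (1465225 to 1466080), which the authors' deposited table put at 22.6 in B and 115 in A. The model before it differed by only -0.18 in log2. After the 7877 bp model of scaffold 15 came a model (467213 to 469823) that the authors' deposited table put at 161 in B and 856 in A. The 7110 bp model of scaffold 4 had neighbours of unlike direction. The one before it (2329174 to 2331223) was listed at 0 in B and 28.0 in A, and the one after it (2342295 to 2343938) at 250 in B and 112 in A in the authors' deposited table.

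Neighbours of other strongly different long models were mixed. Around the 7202 bp model of scaffold 1, 4.20-fold lower in B, the neighbours had log2 values of 0.15 and 0.07 and the nearest began after a gap of 69 bp. Around the 6936 bp model of scaffold 8, 13.3-fold lower in B, they stood at 0.11 and 0.99. Before the 5252 bp model of scaffold 9 lay a scarce model (121031 to 123030) that was 2-fold lower as well but not called, with 9.08 in B and 19.2 in A by the authors' deposited table. After it lay a model called in the opposite direction (130878 to 133606), for which the authors' deposited table gave 4295 in B and 1550 in A. The steep fall on scaffold 6 had only scarce neighbours, with 2.66 and 4.56 in B and 0.941 and 13.3 in A in the authors' deposited table, neither of them called, and the second was 2-fold or more lower in B. Of the rising models, that of 12093 bp followed a called model of opposite direction (4524075 to 4525031), for which the authors' deposited table gave 8.32 in B and 54.3 in A. The 7084 bp model of scaffold 1 was followed by a short model called the same way (1592003 to 1592906), with 17.4 in B and 1.90 in A in the authors' deposited table.

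Scaffold 13 held 4 long models, 3 of them called lower in B, and its 2 strongly different ones lay 19.5 kb apart with 5 models between them. From the model before the first to the model after the second (213490 to 258807, 45.3 kb) all 9 models had a lower mean in B, and 5 were called by DESeq and 5 by edgeR in the authors' deposited table. Beside the long ones these were a model of 4362 bp (213490 to 217851) with 396 in B and 2397 in A in the authors' deposited table, and a pair between the long models. For that pair the authors' deposited table gave 55.5 in B and 342 in A (240945 to 242998), and 71.4 in B and 408 in A (243504 to 246118). Of the 9 models, 2 were listed at 0 in B with under 1 normalized count in A, which gives no fold. This stretch was picked out after its values had been seen. Scaffolds 18 and 11 held 3 and 11 long models, none of them called, against a background of 15.0% of all models. These numbers are too small to compare with that share.

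In 6 places a pair of long models stood side by side, and the log2 values of a pair had the same sign in 3 of these. Long models made up 2.88% of all models, and whether 6 pairs are few or many for that share was not tested. The widest gap in a pair was on scaffold 5, where a model of 8968 bp (1460880 to 1469847) stood in the authors' deposited table at 274 normalized counts in B and 147 in A. The next, of 5695 bp (1471476 to 1477170), had 207 in B and 453 in A, with DESeq adjusted p of 0.124 and 0.0537 in the authors' deposited table. Long models also lay a little farther from their neighbours, with a median distance of 1203 bp against 1002 bp for models of 1000 to 3000 bp. Overlap with another model was found for 8 of the 267 long models and for 327 of the 5674 models of 1000 to 3000 bp.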

How the data were processed

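Of the 48 RNA libraries that the authors sequenced, 6 enter the single comparison table used here. The submitters' processing notes name, in no stated order, TopHat2 2.1.1, cutadapt 1.3, FastQC 0.11.4, SAMtools and HTSeq, and the packages DESeq and edgeR. The sources used here state neither their roles nor the genome build, annotation, filters or strand setting, so positions are those of the authors' deposited table. Without a stated strand setting, reads of overlapping models cannot be assigned with certainty.

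Per the file headers, the table holds a mean signal over both arms and per arm, a fold ratio and p-values from DESeq. Per the file headers, edgeR gave a log2 fold change and its p-values, a likelihood ratio as a score, and a log2 CPM average. The authors rounded all p-values to 4 decimals, and both adjusted columns match a Benjamini-Hochberg adjustment over all 9280 models to rounding. Some log2 cells of the authors for DESeq are not numbers, so log2 of B over A was computed from the arm means.

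The design foresaw this case: with no counts per library, the authors' calls were used and no model was fitted. Members, lists and comparisons were chosen with earlier results of these data known. Named models were all members 4-fold or more apart with a mean of at least 50, the 5 longest, the 5 most abundant and those next to the limit. The 2 strongly different members under a mean of 50, the neighbours and the models under 4-fold were named after their values had been seen. A list of large proteins and clock genes and one of conidial and sexual markers matched nothing, since no names are given.

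Arm means under 3 were written as whole multiples of 3 values per arm within 0.0004, which succeeded for all 116 distinct values of A and 97 of B. The largest worth of a count, 0.320 in A and 0.385 in B, sets the floor of 3 counts used for an arm at 0. Intervals for shares are exact Clopper-Pearson intervals at 95%. These, the counting interval of the low arm and the floors cover counting error only. The 95% interval of the median absolute log2 comes from the ranked values of the long models, which are not replicates. The approximate SE is the absolute edgeR log2 fold change of the authors divided by the square root of its likelihood ratio. Tier medians of this SE use models with an absolute log2 above 0.2. Calculations used Python 3.11.15, numpy 2.4.6, pandas 2.3.3 and scipy 1.17.1, and were tested on simulated data. Alternatives were other length limits, levels, tools, thresholds, scalings, tiers and neighbour rules.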

Additional observations from a re-analysis of the deposited data

Results flagged for a closer look

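The average expression column of edgeR, in log2 CPM, was used in no comparison above, and 5 long models whose mean reached 100 normalized counts stand more than 1 log2 unit above the level that the arm means give. They are 5 of 237 long models with that mean, against 16 of 4231 models of 1000 to 3000 bp and 28 of 6148 models of all spans, a difference that was not tested. The centre was the median of 6148 models of all spans with that mean, and no control libraries can be set beside it. The 17659 bp model of scaffold 4 (470347 to 488005) had an excess of 2.40 log2 units, and the authors' deposited table gave it 140 normalized counts in B and 160 in A. The model of scaffold 8 (1116534 to 1123469), 13.3-fold lower in B, had an excess of 1.47. The excess was 1.18 on scaffold 11 (980577 to 988384), 1.15 on scaffold 15 (554141 to 559572) and 1.02 on scaffold 2 (1019720 to 1025475). Long models with a mean under 100 were left out of these counts. Among them, the 10581 bp model of scaffold 13 (220902 to 231482), strongly lower in B, had an excess of 2.34. In the 237 long models the excess had a median of 0.12 and an SD of 0.34. In the 4231 models of 1000 to 3000 bp it had a median of -0.01 and an SD of 0.27. Which libraries the average covers is not given in the sources used here.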

How the results depend on the processing

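No paired analysis was possible because the table holds 1 mean per arm and no replicate numbers. With no counts per library, DESeq2, other size factors, an unfiltered fit and leaving out libraries were not run. Of the 9 alternatives for the median absolute log2, 3 change only the comparison models or tiers and cannot move the long models' value. Under the other 6 it ran from 0.44 to 0.50. This was within the 95% interval of 0.398 to 0.508 taken over the models, which are not replicates. The 35 calls became 71 with a limit of 4000 bp, which takes in more models, and 22 at an adjusted p under 0.01, a stricter limit. The median log2 was -0.060 with equal arm totals, as that scaling subtracts 0.17 from every value. The 15 models 4-fold or more apart became 31 with a limit of 4000 bp, 47 at 2-fold and 6 at 8-fold, the last all lower in B. The share of neighbours 2-fold the same way was 18.8% (3 of 16) with a mean of at least 50. Of the 13 alternatives for it, 3 cannot move the long models' share, and under the remaining 9 it was between 27.4% and 41.7%. Against the shorter models, the order of the share called turned round with 6000 bp (16.9% against 15.1%), and that of the 4-fold share with 4000 bp (5.201% against 5.67%), comparison models of 1000 to 2000 bp (5.62% against 6.17%) and at 2-fold (17.6% against 19.99%). The level per kb was 85.1 with a limit of 4000 bp and 49.5 with 6000 bp. With arm means only, the spread between libraries is unknown, and the 15 strongly different models limit what the neighbour shares can show.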

Other observations

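Long models seldom came from the ID class with the ending kg. Of the 267, 6 (2.25%) carried it, against 1866 of all 9280 models (20.1%), while IDs of the aug class made up 11 long models (4.12%) against 119 in all (1.28%). None of these 17 long models was 4-fold or more apart, against 5.62% of all long models, and 17 models are too few to compare. No long model was the first or last model of a scaffold with 40 models or more. Long models made up 2.88% of all models, and whether 0 is few for that share was not tested.

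Calls by DESeq alone took up 6 of the 35 long models called by DESeq, against 39 of 1388 in the whole table, a difference that was not tested. The authors' deposited table gave them edgeR adjusted p from 0.0562 to 0.108. The most abundant of them lay on scaffold 3 (2947296 to 2955973), with 1657 normalized counts in B and 792 in A in the authors' deposited table.

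Neighbours 2-fold apart the same way as a strongly different long model numbered 10 of 19 at a distance of 1000 bp or more and 1 of 11 below that. Around the 4-fold models of 1000 to 3000 bp, they numbered 167 of 510 and 113 of 312. Of the 11 long models 4-fold lower in B, 9 lay on the plus strand, as did 1 of the 4 higher in B and 126 of all 267. These counts were picked out after the values had been seen and were not tested.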
